A study of Mus musculus with 2 samples.

Results

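Regulatory T cells of mouse pancreatic tumors were taken from the deposited single-cell values by a marker rule that needed transcripts of the T cell receptor complex together with at least 2 of 4 markers of the regulatory lineage. The rule found 126 cells of 9773, with 46 of 5196 cells in the Ahr fl/fl library and 80 of 4577 cells in the library with LysM-Cre (Ahr cKO). For each gene and cell, y was the deposited value minus the lowest value of that gene over the fl/fl cells. A cell was counted as a regulatory T cell (Treg cell) with y above 1 in at least 1 of Cd3d, Cd3e and Cd3g and in at least 2 of Foxp3, Ikzf2, Tnfrsf4 and Il2ra. Cells with Cd8a above 1 were left out, and so were cells with y above 1 in 2 or more of the cell cycle genes Top2a, Mki67, Birc5 and Cdk1. The cells were thus selected on the measured values of these 12 genes, whose values below describe the choice and support nothing else. The other CD3-positive cells described below passed the same Cd8a and cell cycle conditions and had fewer than 2 markers, unless all CD3-positive cells are named. Where Foxp3 or at least 3 markers were required, Treg cells that failed the stricter rule joined them. The fl/fl comparison then held 563 and 558 cells.

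The tumors came from MT4, an organoid line from the KPC mouse model of pancreatic adenocarcinoma, which had been implanted into the pancreas of C57/BL6 mice 14 days before. Both groups carried floxed Ahr alleles, and only the cKO group carried LysM-Cre as well. LysM-Cre cuts chiefly in neutrophils, monocytes and macrophages and is not a T cell driver. Tumors of 3 mice were pooled for each genotype, live cells were sorted with DAPI, and 1 10X Genomics library was made per genotype. With 1 library per genotype, no difference between libraries has a replicate check and no test was possible, and cells of 1 library are not replicates, so the exact 95% intervals on shares of cells cover counting error only.

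Regulatory T cells are CD4 T cells that restrain other immune cells and are kept in this state by the transcription factor Foxp3. They hold high levels of the interleukin-2 receptor alpha chain (Il2ra), of the co-inhibitory receptor Ctla4 and of receptors of the TNF receptor family such as OX40 (Tnfrsf4) and GITR (Tnfrsf18). In tumors and other tissues they often take on an effector state with Icos, Klrg1 and the integrin chain Itgae, and they are commonly found in pancreatic adenocarcinoma.

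The deposited values are scaled scores for 2000 genes, capped at 10, so differences are given in SDs of a gene over cells and are not changes in expression. The number of molecules per cell is unknown. In the cKO library 16.3% to 32.6% of the CD3-positive cells lay below the fl/fl zero level of the 4 Treg markers, so these values had been moved relative to that level, by a step that no source used here states. In each library 656 cells had a barcode that also occurred in the other, which is 12.6% of fl/fl and 14.3% of cKO cells, and the profiles of such pairs had a median correlation over genes of 0.431, against 0.0722 for other pairs of these cells. Only 1 Treg cell in each library had such a barcode, and it was the same barcode. Without all shared barcodes the Treg shares of CD3-positive cells were 4.91% and 8.53%, against 4.97% and 8.56% with them. Differences of named genes were recomputed for fl/fl Treg against other CD3-positive cells, between genotypes and for part of the Foxp3 split. None of these that had been 0.25 or more changed sign. In the cKO library, differences between Treg and other CD3-positive cells were not recomputed without shared barcodes.

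Of the markers that the rule used, Tnfrsf4 and Ikzf2 were the most often found. Tnfrsf4, the costimulatory receptor OX40, was above 1 in 41 of 46 fl/fl and 75 of 80 cKO Treg cells, and Ikzf2, the transcription factor Helios, in 39 and 67. Il2ra was above 1 in 25 and 32 cells. Foxp3 itself was above 1 in 18 of 46 fl/fl cells (39.1%) and 33 of 80 cKO cells (41.2%), so most cells entered without it. The most common combination was Ikzf2 with Tnfrsf4 alone, in 14 fl/fl and 28 cKO cells, and all 4 markers were found in 8 cells of each library. Exactly 2 markers were above 1 in 23 and 41 cells, and 3 markers in 15 and 31. On GRCm38, Foxp3 lies at chrX:7573644-7595245, Ikzf2 at chr1:69531214-69687245, Il2ra at chr2:11642807-11693193 and Tnfrsf4 at chr4:156013843-156016612, and Tnfrsf18 begins 9.55 kb after the end of Tnfrsf4.

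The threshold cut the 2 libraries differently. The second-highest of the 4 markers decided whether a cell was taken, and its lowest value among Treg cells was 1.11 in the fl/fl and 1.00 in the cKO library, while the highest value just outside was 0.872 and 0.988. In the fl/fl library fewer cells lay near the threshold: the median of this second marker was 5.77, and only 3 other CD3-positive cells held it between 0.5 and 1. The cKO library had a lower median of 2.81, 30 Treg cells between 1 and 2 against 8 in fl/fl, and 74 other CD3-positive cells between 0.5 and 1. Of the other CD3-positive cells, 127 in fl/fl and 149 in cKO had exactly 1 marker. Of cells with 2 or more markers, 5 fl/fl and 4 cKO cells were left out for Cd8a, 5 and 2 for the cycle genes, and 11 and 7 because no CD3 gene was above 1.

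**Figure D1:**
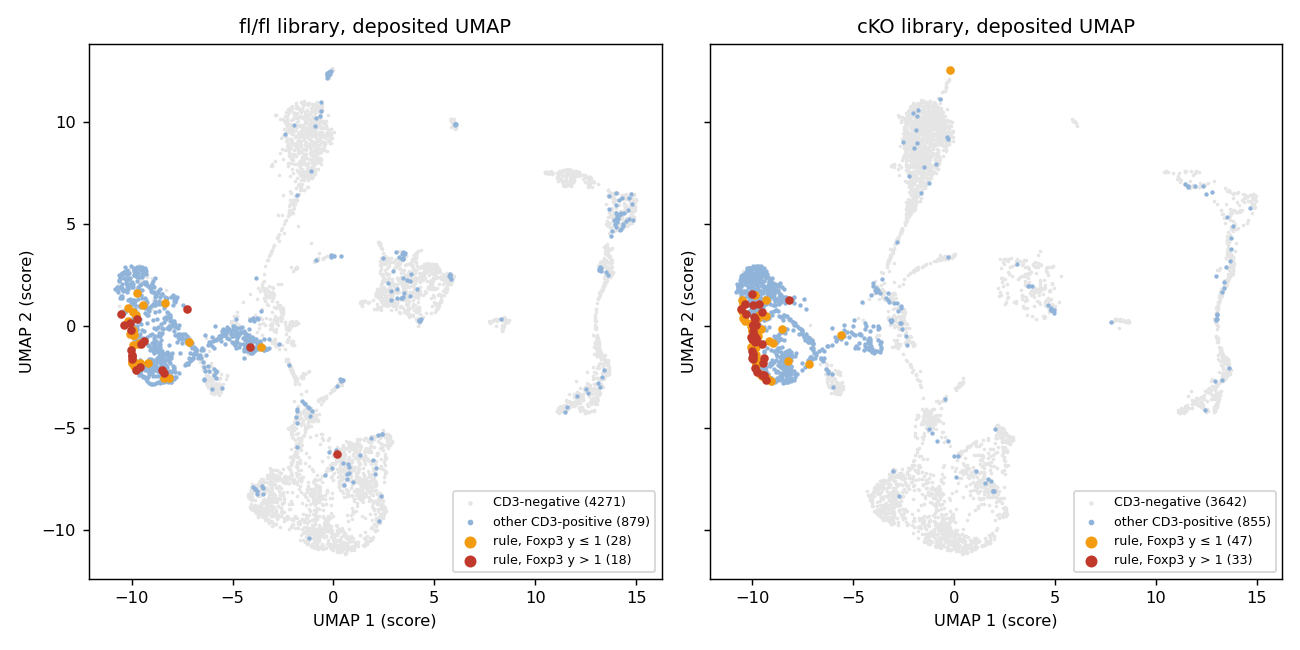
The deposited UMAP coordinates (2 scores per cell, no unit) of the fl/fl library (left) and the cKO library (right), with CD3-negative cells in light grey, all CD3-positive cells that were not taken (Cd8a-positive and cycling cells included) in blue, and Treg cells in red where Foxp3 was above 1 (18 and 33 cells) or orange where it was not (28 and 47 cells). Most cells of both colours lie in the large T cell group at the left, a few lie apart from it, and 1 Treg cell in each library has mostly CD3-negative cells among its 15 nearest neighbours.

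The deposited map, which the rule did not use, placed the Treg cells together among T cells. On average 95.1% of the 15 nearest neighbours of a fl/fl Treg cell were CD3-positive and 30.7% were Treg cells, and the cKO values were 94.1% and 31.6%. For the other CD3-positive cells, the Treg shares were 4.66% and 5.98%. Foxp3-positive and Foxp3-negative members overlapped on the plot of the UMAP coordinates. The map is computed from many genes, which can include the 12 of the rule.

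Markers of myeloid, fibroblast and erythroid cells and the keratins left little trace in these cells. Of 9 measured markers of macrophages and monocytes, Lyz2, C1qa, C1qb, C1qc, Cd14 and Apoe were above 1 in 0 Treg cells of either library, Csf1r and Ms4a7 in 1 fl/fl and 0 cKO cells each, and Ly6c2, which T cells can also carry, in 0 and 4. Also above 1 in 0 Treg cells were the keratins Krt8, Krt18 and Krt19, the 5 collagen-matrix markers and the 4 hemoglobin genes. A count of 0 of 46 or 0 of 80 cells allows shares of up to 6.52% and 3.75% if the limit is set at 3 cells, and the exact upper bounds are 7.71% and 4.51%. The summed y of the 9 measured macrophage and monocyte markers reached 3.38 in fl/fl and 4.12 in cKO Treg cells, against 29.1 and 24.0 in other CD3-positive cells. At least 3 markers of a myeloid, B cell, epithelial, erythroid or fibroblast list were found in 0 fl/fl and 2 cKO Treg cells, and at least 3 of 12 dendritic cell markers in 1 and 0. Epcam, an epithelial adhesion molecule that some T cells also carry, was above 1 in 4 fl/fl Treg cells (8.70%) and 8 cKO Treg cells (10.0%). In other CD3-positive cells the Epcam shares were 2.6% and 2.8%. At least 3 of the 5 measured gamma-delta T cell genes were above 1 in 1 fl/fl and 3 cKO cells, and 1 fl/fl cell had 3 natural killer genes. Of the gamma-delta genes, Cd163l1 was above 1 in 2.2% and 8.8% of Treg cells against 0.4% and 2.5% of other CD3-positive cells. Tcrg-C1 was found in 8.7% and 5.0% against 3.2% and 5.1%, and Trdc in 4.3% and 3.8% against 5.4% and 6.5%. Foxp3 was above 1 in 1 of 1210 fl/fl (0.0826%) and 0 of 934 cKO CD3-negative cells with at least 3 macrophage or neutrophil markers, which should lack the gene, at medians of 81.0 and 79.0 genes above 1 per cell. Treg cells had medians of 81.5 and 73.5 such genes.

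To describe the Treg program beyond the rule, the Treg cells of each library were set against the other CD3-positive (Cd8a-low, non-cycling) cells of the same library, 535 in fl/fl and 567 in cKO. Means were compared gene by gene, and differences of 0.25 SD or more in either direction were counted. In the fl/fl library 106 of 1988 genes outside the rule were higher in Treg cells (5.33%) and 29 were lower (1.46%). In the cKO library the counts were 107 (5.38%) and 44 (2.21%). In both libraries at once 57 genes were higher (2.87%) and 17 were lower (0.855%). The comparison cells had fewer genes above 1 per cell, a median of 59.0 in fl/fl and 62.0 in cKO, and 140 fl/fl and 103 cKO comparison cells had mostly CD3-negative neighbours on the map. With the fl/fl comparison cells weighted to the Treg distribution of genes above zero per cell, differences were 2.50 for Tnfrsf18, 2.33 for Icos, 1.86 for Izumo1r, 1.65 for Sdcbp2 and 1.499 for Ctla4, while Rgs1 was at 0.20, Pdcd1 at 0.19 and Tox at 0.16, all under 0.25. Against comparison cells with mostly CD3-positive neighbours, the same 5 genes stood at 2.36, 2.28, 1.67, 1.75 and 1.51, in this order, with Tox at 0.23 and Pdcd1 at 0.17. The gene lists below were also counted against the 78 fl/fl comparison cells with Cd4 above 1, where 91 of all genes outside the rule were higher (4.58%) and 60 lower (3.02%).

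Of the 23 genes on the Treg identity list, 10 were measured outside the rule, and all 10 were higher in fl/fl Treg cells and 9 in cKO Treg cells, with medians of 0.72 and 0.99 SD against -0.02 and -0.01 over all genes. Against the fl/fl comparison cells with Cd4 above 1, 7 of the 10 were higher and 0 lower. This list and those below were chosen with earlier results of these data known, so their counts are a description. The receptor gene Tnfrsf18 (GITR) led the list. It was above 1 in 34 of 46 fl/fl Treg cells (73.9%, 58.9% to 85.7%) and 52 of 80 cKO Treg cells (65.0%, 53.5% to 75.3%), against 19.6% and 18.9% of the other CD3-positive cells. Its mean was 3.22 (SD 3.39) against 0.69 (SD 1.70) in fl/fl, a difference of 2.53, and the cKO difference was 1.98. These intervals did not overlap those of the comparison cells in either library.

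Ctla4, which takes B7 ligands from antigen-presenting cells, was above 1 in 18 fl/fl Treg cells (39.1%, 25.1% to 54.6%) and 29 cKO Treg cells (36.2%, 25.8% to 47.8%), against 34 of 535 and 34 of 567 comparison cells. The differences in the mean were 1.58 and 1.99 SD. Izumo1r, which encodes folate receptor 4, was found in 23 of 46 and 39 of 80 Treg cells, against 10.1% and 18.7% of comparison cells, with differences of 1.80 and 1.81. Tnfrsf9 (4-1BB) was above 1 in 32.6% and 27.5% against 6.54% and 5.82%. In the same order, Nt5e, the ectoenzyme CD73 that makes adenosine, was found in 26.1% and 26.2% of Treg cells against 8.79% and 7.23%. The intervals of these 4 genes were also apart from those of the comparison cells in both libraries.

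The rest of the identity list differed by less. Il2rb, the shared beta chain of the interleukin-2 and interleukin-15 receptors, was above 1 in 43.5% and 45.0% of Treg cells against 22.8% and 17.3%, and its fl/fl difference of 0.51 was 0.19 against the Cd4-positive comparison cells and 0.09 with the threshold at 2. Itgae, the CD103 integrin chain, was above 1 in 7 fl/fl Treg cells (15.2%) and 11 cKO Treg cells (13.8%), against 5.23% and 4.23%. Socs2, an inhibitor of cytokine signalling, was found in 13.0% and 11.2% against 2.24% and 1.41%. Penk, the enkephalin precursor gene, was above 1 in only 3 and 2 Treg cells, with differences of 0.52 in fl/fl, 0.23 against the Cd4-positive cells, and 0.12 in cKO. Rgs1, a regulator of chemokine receptor signalling, differed by 0.37 and 0.71, but against the Cd4-positive fl/fl cells its difference was -0.25.

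**Figure D2:**
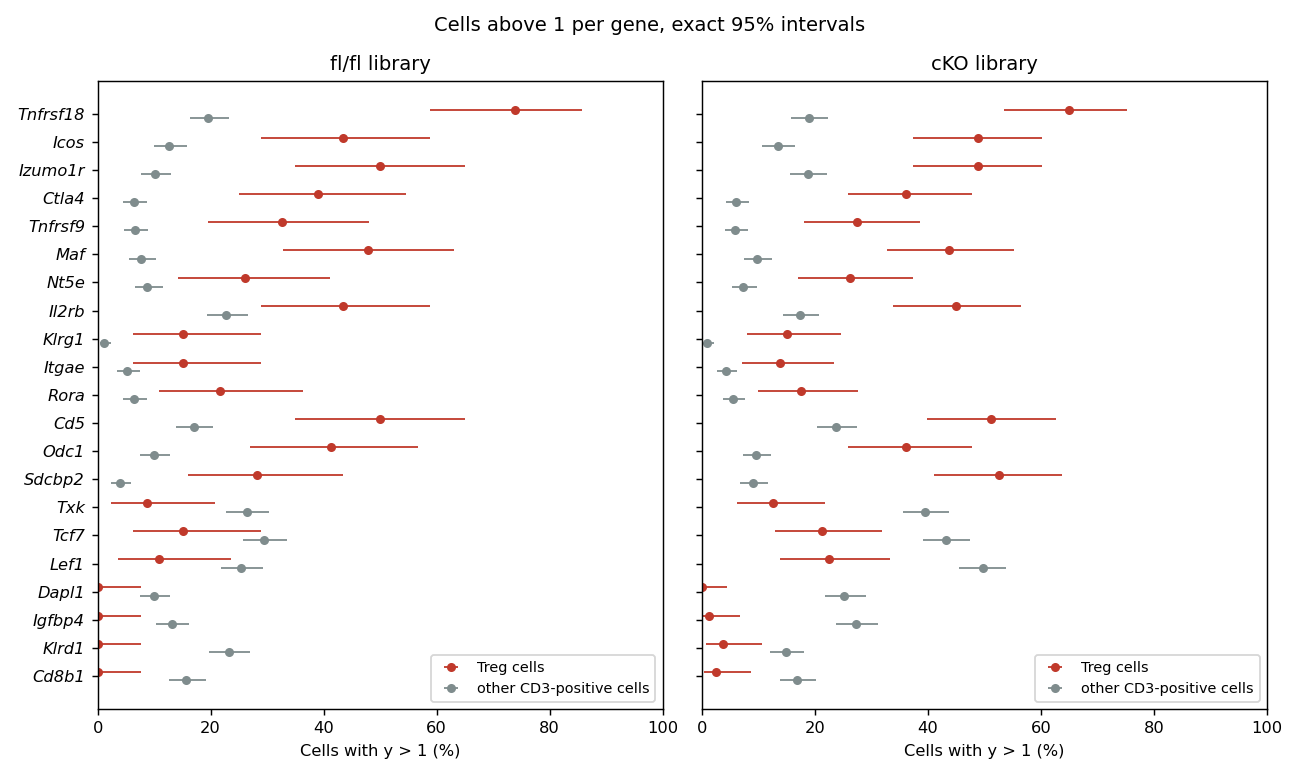
Percent of cells with y above 1 for 21 genes in Treg cells (red; 46 fl/fl and 80 cKO cells) and other CD3-positive cells (grey; 535 and 567 cells), with the fl/fl library on the left and the cKO library on the right. Points are shares and bars exact 95% intervals, which cover counting error only. Tnfrsf18 stands at 73.9% and 65.0% of Treg cells, while Dapl1 was above 1 in 0 Treg cells of either library.

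Genes of effector and tissue Treg cells were in part higher. Of the 17 measured genes of this list, 11 were higher and 0 lower in each library, 9 of them in both, and the medians were 0.30 and 0.36 SD. Against the fl/fl comparison cells with Cd4 above 1, 9 were higher and 3 lower, namely Cxcr6 (-1.55), Pdcd1 (-0.81) and Lag3 (-0.52), and Cxcr3 was at -0.09. Cxcr6 was also lower with weighted fl/fl comparison cells (-0.404) and against those with mostly CD3-positive neighbours (-0.367). In these 2 settings Cxcr3 was at 0.210 and 0.225, while Maf was at 1.273 and 1.231. Icos, the inducible costimulator, was above 1 in 20 fl/fl Treg cells (43.5%, 28.9% to 58.9%) and 39 cKO Treg cells (48.8%, 37.4% to 60.2%), against 12.7% and 13.4%, with differences of 2.43 and 2.11 SD. Icos and Ctla4 lie 62.1 kb apart on chromosome 1, and 8 fl/fl and 16 cKO Treg cells had both above 1. Maf, a transcription factor of interleukin-10-producing T cells, was above 1 in 47.8% and 43.8% of Treg cells against 7.66% and 9.70%. Maf was also above 1 in 11.1% and 11.2% of the myeloid-marker cells.

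Klrg1, an inhibitory receptor of terminally differentiated T cells, was found in few Treg cells and in fewer of the others. It was above 1 in 7 fl/fl Treg cells (15.2%, 6.34% to 28.9%) and in 12 of 80 cKO Treg cells, against 6 of 535 (1.12%, 0.413% to 2.42%) and 5 of 567 (0.882%, 0.287% to 2.05%) other CD3-positive cells. The differences in the mean were 1.16 and 0.78 SD. Rora, a nuclear receptor of tissue lymphocytes, was above 1 in 21.7% and 17.5% against 6.36% and 5.47%. Traf1, an adaptor of TNF receptors, was found in 37.0% and 33.8% against 14.2% and 13.8%. For Dusp4, a phosphatase of MAP kinases, the difference was 0.50 in fl/fl and 0.08 in cKO. Areg, the growth factor amphiregulin, was above 1 in 2 cells of each library, with differences of 0.29 and -0.03.

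Other genes that the list did not name were among the 15 highest in fl/fl. Sdcbp2, which encodes a PDZ-domain protein, differed by 1.80 and 1.45 SD and was above 1 in 28.3% and 52.5% of Treg cells against 3.93% and 8.99%. Odc1, the first enzyme of polyamine synthesis, was above 1 in 41.3% and 36.2% against 9.91% and 9.52%. Apol9b, a gene of the apolipoprotein L family, differed by 0.83 in fl/fl and by -0.02 in cKO, although 5 fl/fl and 6 cKO Treg cells had it above 1. The cKO mean of Apol9b included values below the fl/fl zero level.

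In the T cell receptor list, 7 of 14 measured genes were higher in fl/fl Treg cells and 2 lower, and 6 were higher and 1 lower in cKO. Cd5, a brake on receptor signalling, was above 1 in 23 of 46 and 41 of 80 Treg cells, against 17.0% and 23.8%. Against the Cd4-positive fl/fl cells 5 were higher and 5 lower. Among the 5 lower was Cd4 itself, by which those cells were chosen. The receptor alpha constant gene Trac differed by 1.29 and 0.56, and by 0.25 against the Cd4-positive fl/fl cells. Cd6 differed by 0.78 and 0.48, by 0.30 against those cells, and by 0.08 with the threshold at 2. Cd4 was above 1 in 17 fl/fl Treg cells (37.0%) and 35 cKO Treg cells (43.8%), against 14.6% and 25.0%, so most Treg cells had no Cd4 above 1. The fl/fl difference of Cd4 was 1.27, but it was -0.47 when Foxp3 was required, where 3 of 18 cells had Cd4 above 1. The Foxp3-negative Treg cells then stood among the comparison cells. Cd8b1, the CD8 beta chain, was above 1 in 0 fl/fl and 2 cKO Treg cells, against 15.7% and 16.8% of the comparison cells, which the rule on Cd8a had not removed.

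Genes of naive and central memory T cells were lower in Treg cells. Of the 10 measured, 7 were lower in fl/fl and 8 in cKO, with medians of -0.36 and -0.51 SD, and the 7 of fl/fl were lower in both. Lef1, a transcription factor of resting T cells, was above 1 in 10.9% (3.62% to 23.6%) and 22.5% (13.9% to 33.2%) of Treg cells against 25.4% and 49.7% of comparison cells. Tcf7, its relative, was found in 15.2% and 21.2% against 29.5% and 43.2%. Dapl1 was above 1 in 0 of 46 and 0 of 80 Treg cells, against 9.91% and 25.2%, and Igfbp4 in 0 and 1 Treg cells, against 13.1% and 27.3%. Il7r, the interleukin-7 receptor that Treg cells typically hold at low levels, was not lower: it was above 1 in 34.8% and 36.2% of Treg cells, and the differences were 0.15 and 0.51. Against the fl/fl comparison cells with Cd4 above 1, 5 of the 10 were lower, and Tcf7, Lef1, Dapl1 and Igfbp4 were at -0.64, -0.87, -0.38 and -0.28. Txk, a kinase of T cell receptor signalling outside the lists, was above 1 in 4 of 46 and 10 of 80 Treg cells, against 26.4% and 39.5%.

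**Figure D3:**
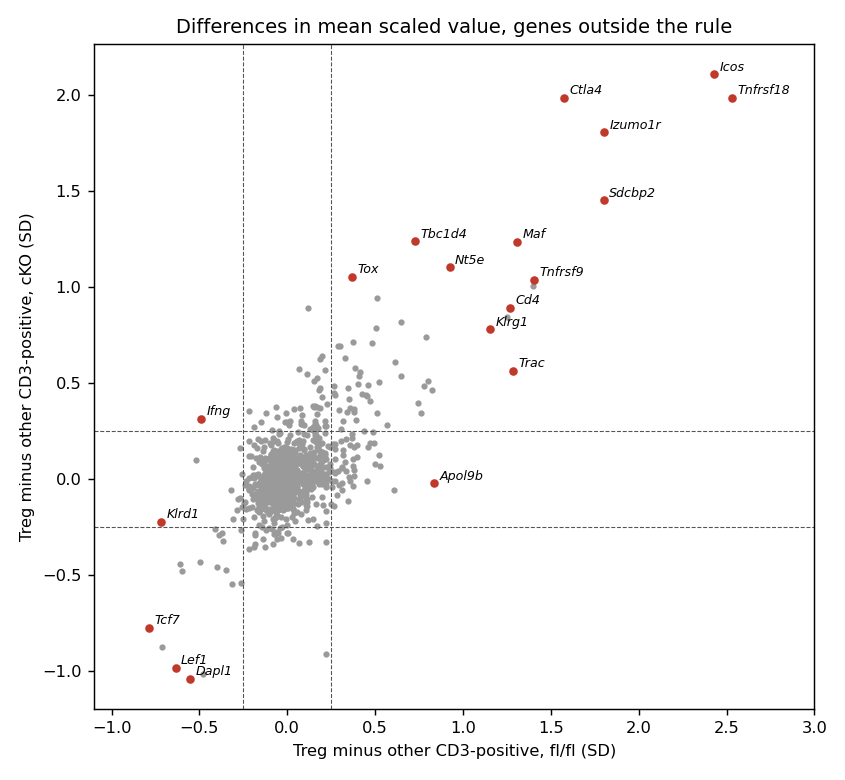
Difference in mean scaled value between Treg cells and other CD3-positive cells (SD of a gene) in the fl/fl library (horizontal) and the cKO library (vertical) for all genes outside the rule, with dashed lines at 0.25 and -0.25. Icos, Tnfrsf18, Izumo1r, Sdcbp2 and Ctla4 stand highest in both libraries, Tcf7, Lef1 and Dapl1 lie below -0.25 in both, and Ifng lies at -0.49 and 0.31.

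Inhibitory receptors were mostly higher, but the direction depended on the comparison cells. Of 7 measured genes 6 were higher and 1 lower in each library, and the list holds Ctla4 and Tnfrsf9, which were described above. Lag3, which binds MHC class II, was above 1 in 28.3% and 23.8% of Treg cells against 12.9% and 11.6%. Tox, a transcription factor of chronically stimulated T cells, was found in 26.1% and 31.2% against 10.8% and 16.4%, with differences of 0.37 and 1.05. Pdcd1, the PD-1 gene, was above 1 in 13 fl/fl (28.3%) and 21 cKO Treg cells (26.2%) against 10.5% and 8.47%. Against fl/fl comparison cells with Cd4 above 1, all 3 were lower in Treg cells, with differences of -0.52 for Lag3, -1.32 for Tox and -0.81 for Pdcd1, and Tox and Pdcd1 were also below 0, at -0.10 and -0.09, with Foxp3 required. Lag3 was at 0.05 with at least 3 markers. Cd160 was the lower member, at -0.39 and -0.30.

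Interferon-induced genes were higher in part. Of 14 measured genes 6 were higher in fl/fl and 7 in cKO, 5 of them in both, 0 were lower, and the medians were 0.17 and 0.22. Against the Cd4-positive fl/fl cells 6 were higher and 0 lower. Ly6a (Sca-1) was above 1 in 45.7% and 47.5% of Treg cells against 21.1% and 21.0%. The guanosine triphosphatase gene Igtp was found in 30.4% and 23.8% against 11.6% and 12.3%, and Gbp4 in 21.7% and 22.5% against 13.5% and 11.3%, where the intervals overlapped in both libraries. Isg20, an exonuclease gene, was above 1 in 30.4% and 20.0% against 9.53% and 8.11%. Of 15 measured cytotoxic genes, 2 were higher and 3 lower in fl/fl and 3 higher and 1 lower in cKO. Higher in both were the cystatin gene Cst7 (0.46 and 0.49) and the granzyme gene Gzmb (0.30 and 0.36). Against the Cd4-positive fl/fl cells 1 of the 15 was higher, Gzmb at 0.45, 6 were lower, and Cst7 was at -0.03. Gzmb was -0.14 in fl/fl when Cd8a-positive and cycling cells joined the comparison. Of 5 measured genes of T helper lineages, 1 was higher and 2 were lower in fl/fl, and 2 were higher and 0 lower in cKO. Klrd1, a natural killer receptor chain, was above 1 in 0 and 3 Treg cells against 23.2% and 14.8%. In the cell cycle list 0 of 13 genes were higher in either library and 1 was lower, in cKO. Both sets of cells had passed the same cell cycle condition. Of 10 stress and immediate early genes only Nr4a1 was higher, in fl/fl (0.27).

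Ahr, the gene floxed in both groups, lies at chr12:35497974-35535038. It was above 1 in 7 of 46 fl/fl Treg cells (15.2%, 6.34% to 28.9%) and 8 of 80 cKO Treg cells (10.0%, 4.42% to 18.8%), against 42 of 535 (7.85%, 5.72% to 10.5%) and 17 of 567 (1.76% to 4.76%) of the other CD3-positive cells. The intervals overlapped in both libraries, and the differences were 0.09 and 0.33 SD. In myeloid-marker cells, the cells that LysM-Cre targets, Ahr was above 1 in 7.69% and 6.21%. Which exons are cut is not stated, and a sequenced 3' end beyond them cannot check the deletion. Of the 5 measured AHR pathway genes, 0 were counted in fl/fl and Ahr alone was counted as higher in cKO. Among the other 4, Cyp1b1 and Scin were above 1 in 0 Treg cells of either library, Ido1 in 1 fl/fl and 0 cKO cells, and Il4i1, an enzyme that makes AHR ligands, in 0 and 2.

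Within the Treg cells, those with Foxp3 above 1 were set against those without. In fl/fl 151 genes were higher (7.60%) and 126 lower (6.34%) in Foxp3-positive cells by 0.25 SD or more, and in cKO 111 (5.58%) and 98 (4.93%), but in both libraries at once only 34 were higher (1.71%) and 25 lower (1.26%). Klrg1 was above 1 in 7 of 18 Foxp3-positive and 0 of 28 Foxp3-negative fl/fl cells, and in 8 of 33 and 4 of 47 cKO cells. Gzmb, a serine protease, was above 1 in 5 of 18 against 0 of 28 fl/fl cells and in 9 of 33 against 3 of 47 cKO cells. Itgae was found in 6 of 18 against 1 of 28 and in 7 of 33 against 4 of 47 cells, and Socs2 in 5 of 18 against 1 of 28 and 6 of 33 against 3 of 47. Among these 4 genes the intervals were apart for Klrg1 in fl/fl alone, at 17.3% to 64.3% against 0% to 12.3%. This split and its genes were chosen after values had been seen, so they are a description.

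The common identity genes were found on both sides of the split. Tnfrsf18 was above 1 in 83.3% of Foxp3-positive and 67.9% of Foxp3-negative fl/fl cells and in 69.7% and 61.7% of cKO cells, and Izumo1r in 55.6% against 46.4% and 66.7% against 36.2%. Ctla4 was found in 38.9% against 39.3% of fl/fl and 51.5% against 25.5% of cKO cells. Cxcr6, a chemokine receptor of tissue T cells, was above 1 in 0 of 18 against 9 of 28 fl/fl cells and in 4 of 33 against 15 of 47 cKO cells. Pdcd1 was found in 4 of 18 against 9 of 28 and in 5 of 33 against 16 of 47 cells. Mean differences of both genes kept no fixed sign: with the threshold at 0.5 the cKO difference was 0.44 for Cxcr6 and 0.30 for Pdcd1, and with at least 3 markers Pdcd1 was 0.64 in fl/fl and 0.05 in cKO. Cd4 was above 1 in 3 of 18 Foxp3-positive against 14 of 28 Foxp3-negative fl/fl cells, but in 16 of 33 against 19 of 47 cKO cells.

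**Figure D4:**
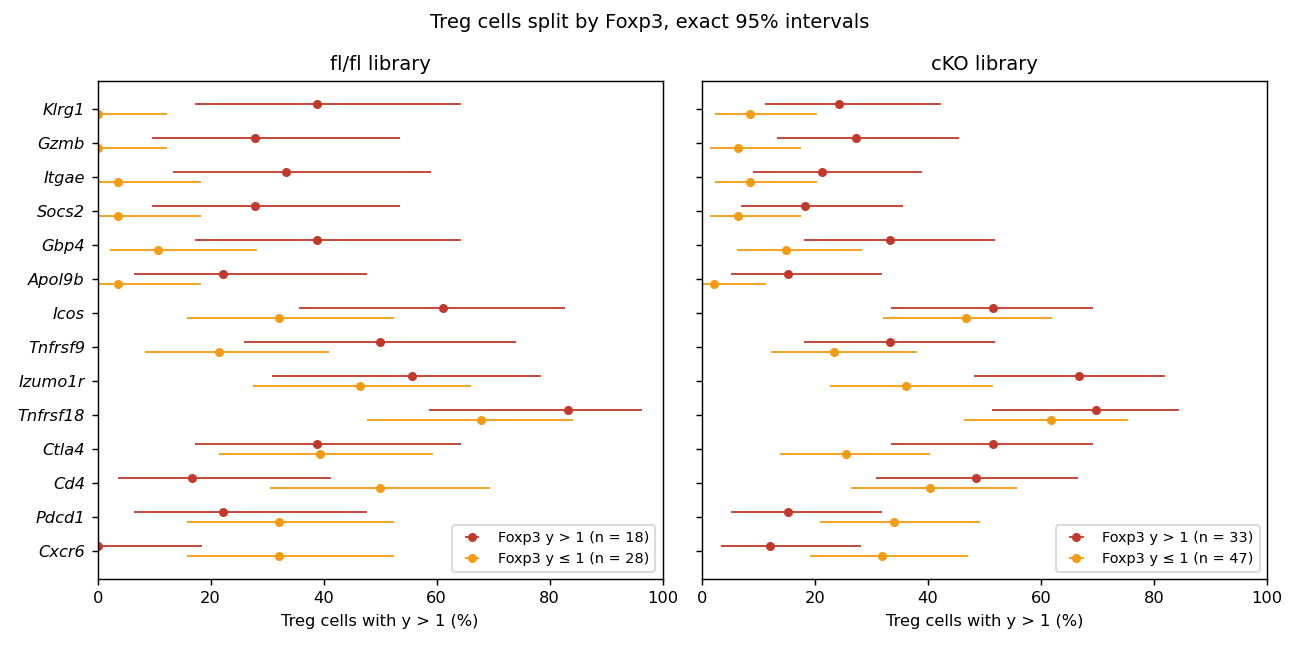
Percent of Treg cells with y above 1 for 14 genes in Foxp3-positive (red; 18 fl/fl and 33 cKO cells) and Foxp3-negative cells (orange; 28 and 47 cells), with the fl/fl library on the left and the cKO library on the right and exact 95% intervals as bars. Klrg1, Gzmb, Itgae and Socs2 were more often above 1 in Foxp3-positive cells of both libraries, and most intervals overlap.

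Single Treg cells combined these genes in different ways. Klrg1 and Tcf7 were together above 1 in 0 of 46 fl/fl and 1 of 80 cKO cells, and Klrg1 with Lef1 in 1 and 0. Klrg1 went with Gzmb in 3 of 7 Klrg1-positive fl/fl cells and 7 of 12 such cKO cells, and with Itgae in 3 and 5. Cxcr6 and Pdcd1 were together above 1 in 7 of 9 Cxcr6-positive fl/fl cells and 11 of 19 such cKO cells, while Cxcr6 and Klrg1 shared 0 and 2 cells. Treg cells with Lef1 and Tcf7 together were 0 in fl/fl and 9 in cKO, of 5 and 18 cells with Lef1. These counts are small.

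By the rule, Treg cells were 0.885% of all cells in the fl/fl library (exact 95% interval 0.649% to 1.18%) and 1.75% in the cKO library (1.39% to 2.17%). Of CD3-positive cells they were 4.97% (3.66% to 6.58%) and 8.56% (6.84% to 10.5%). Among CD3-positive, Cd8a-low, non-cycling cells with Cd4 above 1, the shares were 17 of 95 (17.9%, 10.8% to 27.1%) and 35 of 177 (19.8%, 14.2% to 26.4%), which overlap. The size of the difference depended on the threshold. At 0.5 the shares of CD3-positive cells were 4.95% and 15.6%, and at 2 they were 27 of 637 (4.24%, 2.81% to 6.11%) and 40 of 667 (4.32% to 8.08%), again overlapping. With Foxp3 required they were 1.95% (1.16% to 3.06%) and 3.53% (2.44% to 4.92%), which also overlap. An estimate of the shift in the cKO values was also subtracted before the rule was applied, from all rule genes but Cd3d, Cd3e and Cd3g. Then 65 cKO cells were taken, of which 58 were among the 80. The cKO share was 6.95% (5.41% to 8.78%), with an interval that overlapped that of fl/fl. This subtraction can also have taken away signal of the markers themselves. The share was higher in cKO under every setting of the rule that was run, while genotype, library and the shift of the values cannot be told apart.

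Between genotypes, the mean of a gene over the 80 cKO Treg cells was set against that over the 46 fl/fl Treg cells. In the deposited values 54 of the genes outside the rule were higher in cKO (2.72%) and 53 lower (2.67%). With the shift subtracted for the 1914 genes that allowed it, 55 were higher (2.87%) and 37 lower (1.93%). In the much larger sets of other CD3-positive cells, 11 genes were higher (0.553%) and 5 lower (0.252%). Small sets of cells give wider means, so these counts do not compare the 2 populations.

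Cd40lg and Ifng, known from activated conventional T cells, were more often found in Treg cells of the cKO library. Cd40lg, the ligand of CD40, was above 1 in 0 of 46 fl/fl cells, which allows a share of up to 6.52% at a limit of 3 cells (exact upper bound 7.71%), and in 13 of 80 cKO cells (16.2%, 8.95% to 26.2%). The deposited difference was 0.72 and that with the shift subtracted 0.91, but with the threshold at 2 it was 0.13. Among other CD3-positive cells the Cd40lg shares were also lower in fl/fl, with 31 of 535 cells (3.97% to 8.12%) against 68 of 567 (lower bound 9.43%). Ifng, the interferon gamma gene, was above 1 in 1 of 46 cells (2.17%, 0.0550% to 11.5%) and 12 of 80 cells, with differences of 0.66 and 0.34, and in 9.53% and 10.8% of other CD3-positive cells. The Ifng intervals overlapped. Of the 13 Cd40lg-positive cKO cells 4 had Foxp3 above 1, of the 12 Ifng-positive cells 5, and 1 cell had both Cd40lg and Ifng. Over the 65 cKO cells taken after subtraction, the deposited differences were 0.49 for Cd40lg and 0.48 for Ifng.

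Further members of the lists were higher in cKO Treg cells in the deposited values, and part of them lost this with the shift subtracted. Tox differed by 0.69 and by 0.55 with the shift subtracted, with shares of 26.1% and 31.2%, and by 0.33 over the 65 cKO cells taken after subtraction. Cd28, the main costimulatory receptor, differed by 0.61 and by 0.07 after subtraction, Tcf7 by 0.47 and 0.18, Ctla4 by 0.42 and 0.19, and Lef1 by 0.32 and 0.12. Cd28 was above 1 in 53.8% of cKO Treg cells, so its estimate of the shift can include signal of the gene itself. Over those 65 cells the deposited differences were not all smaller, at 0.35 for Cd28, 0.30 for Tcf7, 0.73 for Ctla4 and 0.55 for Lef1. At other thresholds Tcf7 was 0.22 (at 2) and Ctla4 0.11 (at 0.5). Trbc1 (0.419), Il7r (0.406), Ccl3 (0.283) and Ccl4 (0.271) were also higher in the deposited values. Cd28, Tcf7 and Lef1 were also higher in the other CD3-positive cKO cells, by 0.33, 0.46 and 0.67, while Tox and Ctla4 differed there by 0.007 and 0.010. Whether the Treg differences exceed those of the other T cells was not tested.

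Lower in cKO Treg cells were, among others, Tnfrsf18 (-0.77), Trac (-0.53), the gamma-delta receptor gene Tcrg-C1 (-0.64), Dusp4 (-0.47), Klrg1 (-0.42), Rora (-0.42), Isg20 (-0.40) and Icos (-0.39). With the shift subtracted Tcrg-C1 was -0.58, Dusp4 -0.39, Klrg1 -0.34, Rora -0.30 and Isg20 -0.46, and no value was estimated for the other 3, which were above zero in too many cells. Over the 65 cKO cells taken after subtraction, Klrg1 was at -0.12, Icos at -0.73 and the other 6 between -0.80 and -0.37. Tnfrsf18 and Trac were each above 1 in 73.9% of fl/fl and 65.0% of cKO Treg cells, Isg20 in 30.4% and 20.0%, Rora in 21.7% and 17.5%, and Icos in 43.5% and 48.8%. Klrg1 was found in 7 of 46 and 12 of 80 cells, Tcrg-C1 in 4 and 4, and Dusp4 in 5 of 46 and 1 of 80. The intervals of the 2 libraries overlapped for each of these 8 genes. Penk (-0.491), Tnfrsf9 (-0.329), Tuba1b (-0.267) and Nr4a1 (-0.255) were also lower in the deposited values. With the shift subtracted they were at -0.129, -0.364, -0.192 and -0.202. Directions also turned with the rule: Klrg1 was 0.08 with the threshold at 2, Tcrg-C1 0.04 with Foxp3 required, and Icos 0.06 with values limited at 5. With the threshold at 0.5, Rora was -0.18 and Trac -0.19. Ahr differed by 0.09 and by 0.08 with the shift subtracted, and Lyz2, the locus of the Cre, by -0.02 and -0.01.

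**Figure D5:**
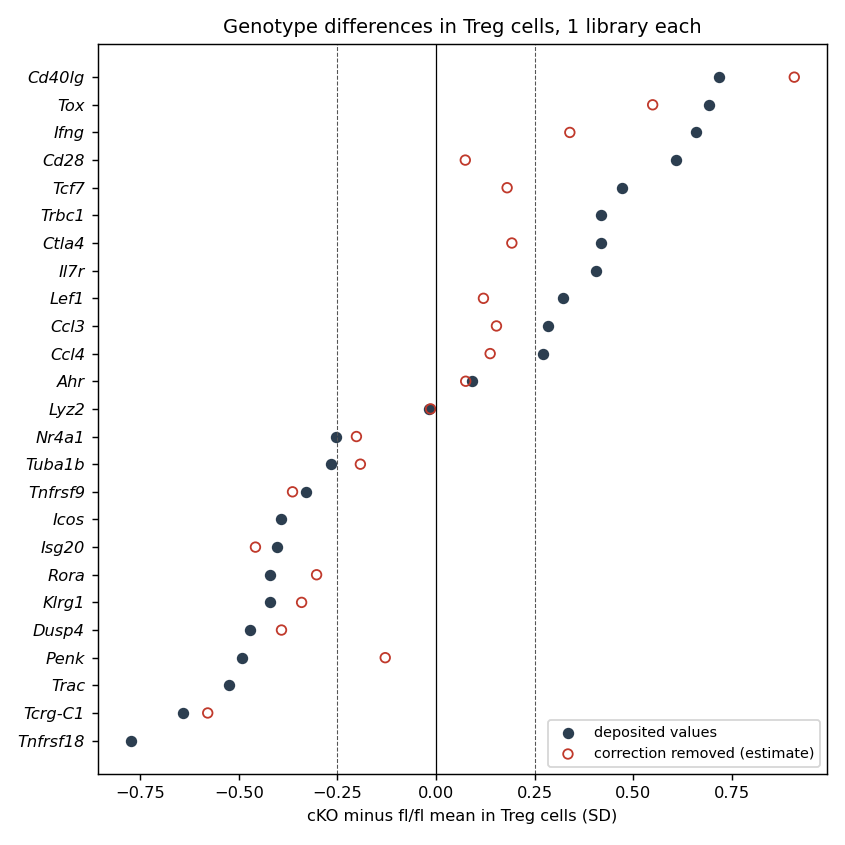
Difference in the mean scaled value (SD of a gene), 80 cKO minus 46 fl/fl Treg cells, for Ahr, Lyz2 and the listed genes with a deposited difference of at least 0.25, as deposited (filled) and with an estimate of the shift in the cKO values subtracted (open, where one was made); dashed lines stand at 0.25 and -0.25. Cd40lg, Tox and Ifng lie above 0.25 in both forms and Cd28 in the deposited form only, with 1 library per genotype and no error from replicates.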

How the data were processed

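The authors deposited a table of scaled scores for 2000 genes in 9773 cells and a table of 2 UMAP scores per cell, and the library was read from the end of each cell name. Per the submitters' processing notes, the software included Cell Ranger 3.0.0 and Seurat 3.1.4 and the build was mm10/GRCm38, without the step each served. A filter on cells or a removal of doublets is not given in the sources used here. The lowest value was -25.91 and the highest 10, and the median gene had 96.0% of fl/fl cells at its lowest value, which was taken as zero. Whether the values were integrated across libraries is not given in the sources used here.

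Python 3.11.15 with numpy 2.4.6, pandas 2.3.3, scipy 1.17.1 and scikit-learn 1.9.0 was used. Shares carry exact Clopper-Pearson 95% intervals. Doublets were kept, and cells with at least 3 markers of another lineage were left out in 1 alternative. To estimate the shift of a cKO value, the 0.3 quantile was taken among the 30 closest other cKO cells in 30 principal components. For differences of genes this was done where fewer than 40% of the fl/fl Treg and comparison cells had the gene above zero. For the rule it was done without this limit, for the 4 Treg markers, Cd8a and the cycle genes. The CD3 genes stayed as deposited. Ikzf2, Tnfrsf4 and Il2ra were above zero in 91.3%, 89.1% and 54.3% of fl/fl Treg cells, so their estimate can include marker signal. The calculation was tested on simulated data with a simple shift only. Positions are from GENCODE vM21 (GRCm38). Depth in molecules is unknown, so no cell was thinned.

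The members, gene lists and comparisons were chosen with earlier results of these data known. Named genes were the 15 highest and 10 lowest in fl/fl among genes above 1 in at least 5% of either set, all measured Treg identity, effector and AHR pathway genes, and up to 6 of each other list. Between genotypes they were Ahr, Lyz2 and up to 4 of each list, since fl/fl had under 50 Treg cells. The Foxp3 split, the gene pairs, the genes in the plots, Epcam, the single gamma-delta T cell genes and the subset shares were chosen after their values were seen.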

Additional observations from a re-analysis of the deposited data

Results flagged for a closer look

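Ifng was on opposite sides of 0 in the 2 libraries when Treg cells were set against the other CD3-positive cells. The difference in the mean was -0.490 in the fl/fl library, where 1 of 46 Treg cells had Ifng above 1, and 0.312 in the cKO library, where 12 of 80 did. The shares in the other CD3-positive cells were 9.53% and 10.8%. The gap between the 2 differences was not tested.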

How the results depend on the processing

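No paired analysis was possible because each genotype has 1 library, so leaving out a replicate was not possible either. The difference in share (cKO minus fl/fl, percentage points), 0.863 of all and 3.58 of CD3-positive cells, was 2.47 and 10.6 with the threshold at 0.5, 0.354 and 1.76 at 2, 0.409 and 1.68 with at least 3 markers, and 0.375 and 1.58 with Foxp3 required. The cKO median as zero level gave the same 80 cells, since the medians lay within 0.00764 of the fl/fl lowest values, and so does not test the zero level. Fl/fl counts of 106 genes higher and 29 lower than in other CD3-positive cells became 48 lower (threshold 2), 51 lower (3 markers), 164 and 57 (Foxp3 required), 60 lower (against all other CD3-positive cells, or those with Cd4 above 1), 16 lower (values limited at 5) and 32 and 8 (counted from 0.5). Genotype counts of 54 higher and 53 lower became 101 and 121 (threshold 2), 102 and 114 (3 markers), 108 and 158 (Foxp3 required), 30 higher (genes above 1 in 5% of fl/fl Treg cells), 35 higher (limited at 5) and 7 and 7 (counted from 0.5). Rules that leave fewer cells gave more genes past 0.25. Foxp3 split counts of 34 and 25 became 41 lower (threshold 2), 55 higher (3 markers) and 11 lower (limited at 5).

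Among differences reported at 0.25 SD or more, signs turned against other CD3-positive fl/fl cells for Pdcd1 at threshold 2 (-0.036) and with 3 markers (-0.22), for Cd4 (-0.47), Cxcr3 (-0.005), Pdcd1 (-0.089), Tcrg-C1 (-0.33) and Tox (-0.10) with Foxp3 required, and for Gzmb (-0.14) against all other CD3-positive cells. Against cells with Cd4 above 1 the turned sign of Cd4 (-3.21) was set by how these cells were chosen. There signs also turned for Cd7 (0.045), Cd8b1 (0.007), Cst7 (-0.028), Cxcr3 (-0.09), Lag3 (-0.52), Ly6c2 (0.023), Pdcd1 (-0.81), Rgs1 (-0.25) and Tox (-1.32). Between genotypes they turned for Klrg1 (0.077, threshold 2), Tcrg-C1 (0.042, Foxp3 required) and Icos (0.061, limited at 5), and in the Foxp3 split for cKO Cxcr6 (0.44) and Pdcd1 (0.30) at 0.5 and Pdcd1 with 3 markers (0.64 fl/fl, 0.045 cKO). With Foxp3 or 3 markers required, Treg cells that failed these rules had joined the comparison cells. The cause of the turns other than that of Cd4 against Cd4-positive cells was not tested. Of 913 values of named genes against other CD3-positive cells 776 stayed within 0.25 SD of the reported one, 119 moved by more and 18 are the turned signs above. Smaller differences changed sign in 15 values against other CD3-positive cells and 19 between genotypes, which are counted among those that stayed or moved. The comparisons with Cd4-positive cells and with cells of mostly CD3-positive neighbours, the omission of shared barcodes, the rule on values with the shift subtracted and all settings of the Foxp3 split were added after the data had been seen.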

Other observations

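CD3-positive, Cd8a-low, non-cycling cells with exactly 1 of the 4 Treg markers, 127 in fl/fl and 149 in cKO, were described by the same genes, chosen after their values were seen. Ifng was above 1 in 18.9% (12.5% to 26.8%) and 22.8% (16.3% to 30.4%) of them, against 1 of 46 (0.0550% to 11.5%) and 12 of 80 Treg cells and 6.62% and 6.46% of the cells with no marker that passed the same conditions on CD3, Cd8a and cycle genes, 408 and 418. In fl/fl the interval of the 1-marker cells did not overlap that of the Treg cells. Pdcd1 was above 1 in 22.8% and 16.8% of the 1-marker cells and Tox in 22.8% and 25.5%, against 6.62% and 5.50% and 7.11% and 13.2% of cells with no marker. Cd163l1, a gamma-delta T cell gene, was above 1 in 1 of 46 fl/fl and 7 of 80 cKO Treg cells, against 0.4% and 2.5% of the other CD3-positive cells.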
